A study of Rattus norvegicus with 6 samples.

Results

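Collagens are the main structural proteins of the extracellular matrix. Each collagen is a trimer of alpha chains that wind into a triple helix inside the cell and assemble outside it into fibrils, networks or filaments, depending on the type. In bone marrow, stromal cells make the fibrillar collagens of the scaffold and the type IV collagens of basement membranes. The genes described here are the collagen chain genes measured in mesenchymal stem cells (MSCs) from rat marrow, the stromal cells that grow attached to plastic, chosen from the deposited table by symbol alone (Col, a number, the letter a and a number). The rule found 44 of 23091 rows, covering 27 collagen types with 1 gene identifier per symbol.

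The series asks how gene expression changes while such cells are driven towards a neuron-like state. The 3 CYSP samples received CYSP, whose make-up is not stated in the labels, and the 3 CK samples received the solvent DMSO. All 6 samples were wild type (WT), and all were kept in the same neural differentiation medium for 7 days. Strain, sex and age are not given in the labels, and nothing in them says that samples of a group came from separate cultures or animals, so p-values speak only to the variation among these 6 samples, part or all of which may be technical.

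Total counts lay between 15060933 and 17244700 per sample. A count of 0, read as at most 3 counts, allowed up to 0.205 CPM (counts scaled to library size) in the CYSP samples and up to 0.188 CPM in the CK samples, counting error only. All 7 listed stromal markers were tested, with 4 higher (Thy1, Nt5e, Eng and Cd44) and 3 lower (Itgb1, Pdgfrb and Vcam1) in CYSP. Their summed level was 2946 to 3009.7 CPM in CYSP samples and 4055 to 4123 CPM in CK samples. Itgb1 was the largest part of the stromal sums (1297 CPM in CYSP and 2536 CPM in CK on average). Over all rows tested, 38.2% were called higher in CYSP and 37.8% lower at an adjusted p under 0.05. Several other cell-type lists differed between the groups, some through single genes. All 6 smooth muscle and myofibroblast markers fell, with sums of 9.35 to 16.1 CPM in CYSP and 7819 to 8029 CPM in CK. Of 8 leukocyte and macrophage markers 6 fell and 1 rose, with sums of 409.5 to 413 CPM in CYSP and 846 to 963 CPM in CK. Adgre1 was the largest part of these sums (212 CPM in CYSP and 553 CPM in CK on average). The marker that rose was Cd163 (16.6 CPM in CYSP and 0.041 CPM in CK), and Cd14 did not pass. Chondrocyte markers summed to 10.2 to 15.2 CPM in CYSP and 645 to 691 CPM in CK. Of 3 tested, Acan (1.17 CPM in CYSP and 631 CPM in CK on average) and Sox9 fell, and Comp rose (9.32 CPM in CYSP and 0.214 CPM in CK). Adipocyte markers summed to 606 to 638 CPM in CYSP and 75.3 to 81.7 CPM in CK, mostly through Adipoq (519 CPM in CYSP and 0.199 CPM in CK). Of 4 tested, Adipoq and Lpl rose, Fabp4 fell and Pparg did not pass. Osteoblast markers summed to 152 to 157 CPM in CYSP and 85.1 to 92.4 CPM in CK, with 2 of 4 tested higher and 1 lower. In these lists the defining genes Bglap (osteoblast) and Cidec (adipocyte) had 0 counts in all samples. Endothelial sums stayed between 3.92 and 4.98 CPM in CYSP and between 6.04 and 6.84 CPM in CK, with Emcn at 0. Of 4 tested endothelial markers, Kdr and Vwf rose, and Tek and Tie1 fell. Epithelial sums stayed between 0.205 and 0.425 CPM in CYSP and between 2.9 and 5.52 CPM in CK, with Krt5 at 0. Schwann cell sums were 114 to 119.8 CPM in CYSP and 122 to 125 CPM in CK, and neuron sums 85.7 to 90.6 CPM in CYSP and 14.2 to 14.9 CPM in CK, with Rbfox3 at 0. Of 4 tested neuron markers, Tubb3 and Snap25 rose, and Map2 and Dcx fell. The part of any of these cells in the collagen results was not tested. In bulk RNA, fewer cells of a type and less RNA per cell cannot be told apart.

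Collagen transcripts made up a smaller part of the RNA in CYSP samples, and a different set of chains. They took 6.06%, 5.91% and 5.94% of all counts in the CYSP samples, against 12.5%, 12.1% and 12.2% in the CK samples. The groups did not overlap. Of the 44 chains 32 passed the filter on low counts and were tested with edgeR's quasi-likelihood test. At a Benjamini-Hochberg adjusted p under 0.05 over all rows tested, 13 collagens were higher in CYSP and 18 were lower. Over all 12623 rows tested, 38.2% were called higher and 37.8% lower, together 76.1%, so that most genes of any kind passed. Of the 32 tested chains, 9 were higher by a log2 fold change of at least 1 (15.2% of all rows tested) and 13 were lower by at least as much (12.7% of all rows tested). The median absolute log2 fold change was 1.79 over the tested collagens and 0.53 over all rows tested. The signed medians were -0.39 and 0. In 30 of the 32 chains the CPM values of the CYSP and CK samples did not overlap, as in 77.0% of all rows tested. Col4a4, which is 1 of these 30, did overlap in FPKM. Of the 30 chains without overlap in CPM, 13 were higher in CYSP (38.8% of all rows tested) and 17 lower (38.2% of all rows tested).

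**Figure D1:**
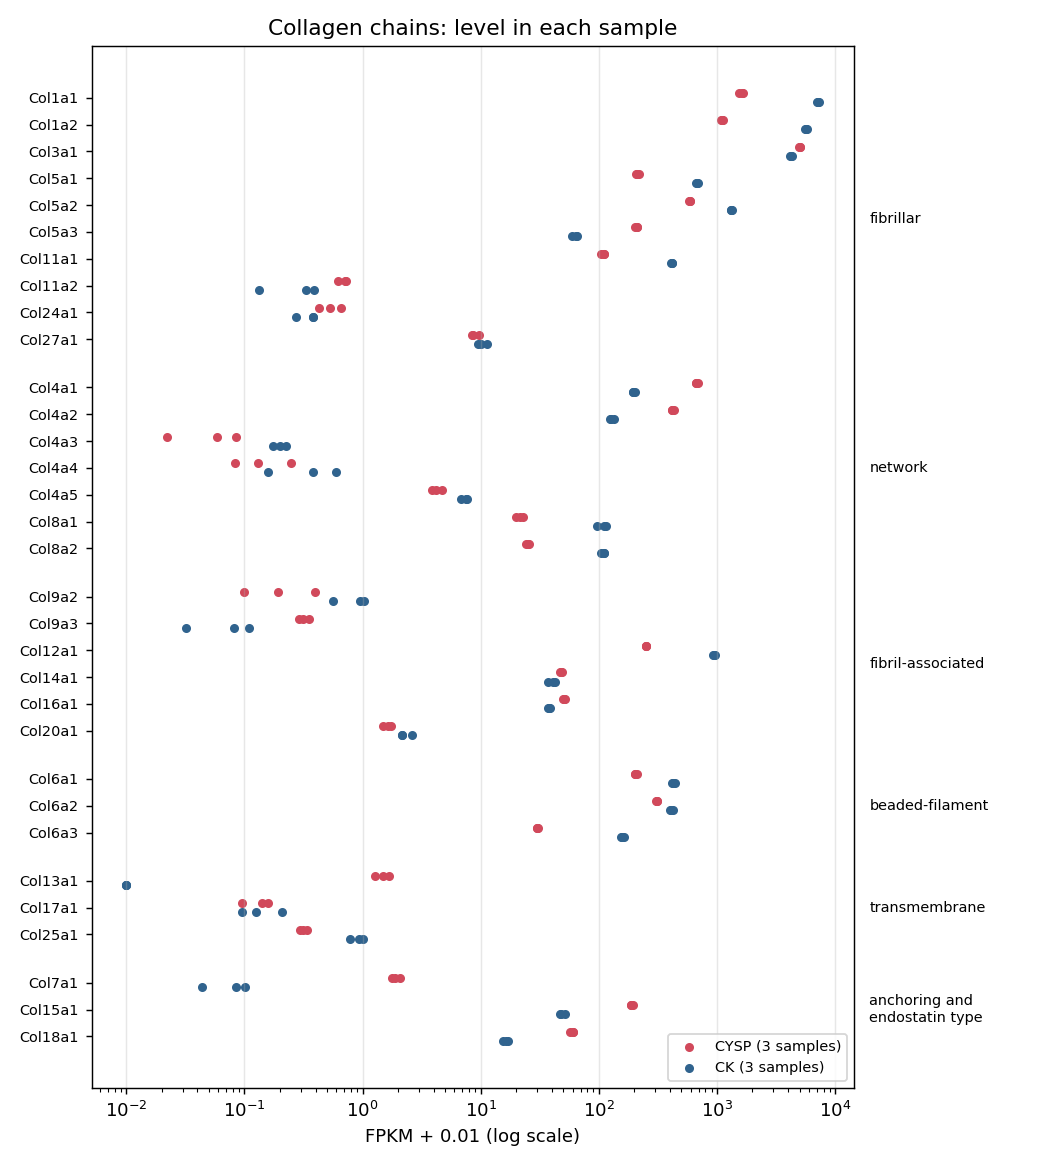
FPKM + 0.01 (log scale) of the 32 tested collagen chains in each of the 3 CYSP and 3 CK samples, 1 point per sample, grouped by collagen class. In FPKM the groups overlap for Col27a1, Col17a1 and Col4a4, and Col13a1 lies at 0 FPKM in all CK samples.

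The fibrillar collagens, which form the banded fibrils of connective tissue, held the largest levels. Col1a1 and Col1a2, the chains of type I collagen, the main protein of bone and tendon, were 4.21-fold and 4.84-fold lower in CYSP. Col1a1 had 1673, 1543 and 1619 FPKM (fragments scaled to gene length and library size) in the CYSP samples, against 7369.8, 7119.7 and 7057 FPKM in the CK samples. Col1a2 had 1128, 1075 and 1105 FPKM in CYSP and 5735, 5594 and 5648 FPKM in CK. No sample of either group came near the other. From the counts, Col1a1 fell by 2.07 on the log2 scale (SE 0.0297, edgeR adjusted p = 1.77e-16) and Col1a2 fell by 2.28 (SE 0.0204, edgeR adjusted p = 1.47e-81).

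Col3a1, whose homotrimer is the type III collagen of pliable tissues such as vessel walls and marrow, moved the other way by a small amount. Its level was 5031, 5009 and 4968 FPKM in CYSP samples and 4267, 4151 and 4287 FPKM in CK samples, without overlap. The log2 fold change was 0.32 (SE 0.0183, edgeR adjusted p = 2.44e-27). This call rests on the small spread between the samples. A biological coefficient of variation of 0.2 was also assumed in place of the estimated 0.0393. With it, the edgeR adjusted p was 0.263, from a likelihood ratio test in place of the quasi-likelihood test. By mean FPKM, Col3a1 ranked 1 among the collagens in CYSP and 3 in CK, while Col1a1 ranked 2 in CYSP and 1 in CK. The ratio of Col3a1 to Col1a1 in FPKM was 3.01, 3.25 and 3.07 in CYSP samples, against 0.579, 0.583 and 0.607 in CK samples. This ratio and that of Col5a3 to Col5a1 were chosen after the values were seen.

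The chains of type V collagen, which sits inside type I fibrils and limits their width, split. Col5a1 had 217, 208 and 210.4 FPKM in CYSP and 694, 679 and 671 FPKM in CK, and fell by 1.60 on the log2 scale (SE 0.0235, edgeR adjusted p = 1.68e-66). Col5a2 had 589.6, 596 and 576 FPKM in CYSP and 1322, 1325 and 1349 FPKM in CK, and fell by 1.10 (SE 0.0209, edgeR adjusted p = 1.53e-58), a call lost with a coefficient of variation of 0.4 assumed (edgeR adjusted p = 0.0886). Col5a3, the least widespread of these chains, rose. It had 211, 209 and 204 FPKM in CYSP and 64.8, 63.9 and 59.4 FPKM in CK, a log2 fold change of 1.81 (SE 0.0283, edgeR adjusted p = 7.5e-63). In CYSP samples Col5a3 thereby stood at 0.972, 1 and 0.971 times the FPKM of Col5a1, against 0.0934, 0.0941 and 0.0885 times in CK samples.

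Col11a1, a chain of type XI collagen, which is best known from cartilage and can form mixed trimers with type V chains, fell together with Col5a1. Its level was 105, 110.2 and 110.3 FPKM in CYSP and 415, 407 and 418 FPKM in CK, with a log2 fold change of -1.85 (SE 0.0242, edgeR adjusted p = 5.02e-70). Its partner Col11a2 was rare and rose, with 73, 57 and 65 counts in CYSP and 13, 36 and 32 in CK (log2 fold change 1.38, SE 0.266, edgeR adjusted p = 3.73e-06). Col24a1, a minor fibrillar chain, had 47, 66 and 52 counts in CYSP and 43, 27 and 40 in CK. Its log2 fold change of 0.72 (edgeR adjusted p = 0.00717) lost its call without CYSP replicate 2 (edgeR adjusted p = 0.0803). Col27a1, another minor chain, was at 8.64, 8.46 and 9.66 FPKM in CYSP and at 11.4, 10.1 and 9.57 FPKM in CK. The groups overlapped, and its log2 fold change of -0.14 (edgeR adjusted p = 0.0309) was lost with DESeq2 (adjusted p = 0.104), without CK replicate 1 (edgeR adjusted p = 0.364) and without CYSP replicate 1 or 2 (edgeR adjusted p = 0.106 and 0.199). Col2a1, the main cartilage collagen, had 1 count over the CYSP group and 6 over the CK group and was not tested. In all, 4 of 10 tested fibrillar chains were higher and 6 lower.

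**Figure D2:**
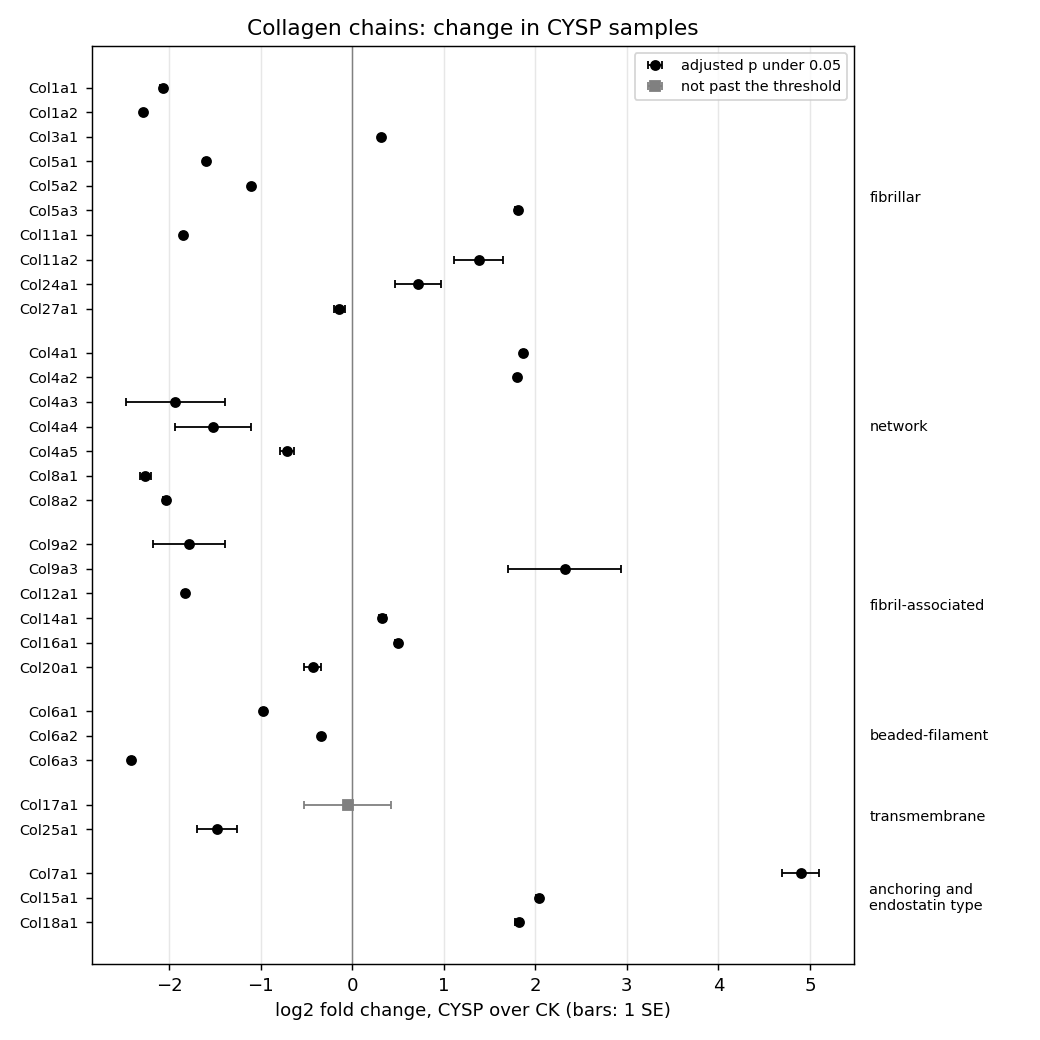
Log2 fold change of CYSP over CK (x axis) with 1 SE (bars) for 31 tested collagen chains by class, black where the edgeR adjusted p was under 0.05. Col13a1 is left out because it had 0 counts in CK. Fibrillar, network and fibril-associated chains lie on both sides of 0, the 3 beaded-filament chains lie below it, and Col7a1, Col15a1 and Col18a1 lie above it.

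The network-forming collagens split by trimer. Type IV collagen is the sheet of every basement membrane, and its common trimer has Col4a1 and Col4a2 chains. These genes lie head to head and are transcribed away from each other. In the RefSeq table (build GRCr8) the stretch between their starts is 76 bases long, at chr16:84885521-84885596, plus strand, with Col4a1 to the right and Col4a2 to the left. It is shown because both chains rose by nearly the same amount and this stretch lies between them. Capitals mark its 1 match to GGGCGG, the GC box, on either strand.

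Col4a1-Col4a2: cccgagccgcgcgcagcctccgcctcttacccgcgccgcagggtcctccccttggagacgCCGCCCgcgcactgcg

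Col4a1 had 693, 660 and 669 FPKM in the CYSP samples, against 201, 193 and 193 FPKM in the CK samples. Col4a2 had 432, 420 and 420.1 FPKM in CYSP and 134, 128 and 125 FPKM in CK. Both were higher in every CYSP sample, with log2 fold changes of 1.87 (SE 0.0238, edgeR adjusted p = 1.9e-70) and 1.80 (SE 0.0249, edgeR adjusted p = 5.34e-68). Col4a1 ranked 4 among all collagens by mean FPKM in CYSP and 10 in CK.

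The other tested type IV chains were lower. Col4a3, Col4a4 and Col4a5 form the trimer of specialised basement membranes such as that of the kidney filter. Col4a5 had 4.14, 4.67 and 3.83 FPKM in CYSP and 7.56, 6.77 and 7.6 FPKM in CK, a log2 fold change of -0.71 (SE 0.0732, edgeR adjusted p = 2.33e-14), and did not pass with an assumed coefficient of 0.4 (edgeR adjusted p = 0.35). Col4a3 and Col4a4, a second head-to-head pair with 412 bases between the starts, were near the detection limit and both lower. Col4a3 had 7, 1 and 4 counts in CYSP and 18, 14 and 19 in CK (log2 fold change -1.93, SE 0.537, edgeR adjusted p = 9.33e-04). Col4a4 had 8, 7 and 13 counts in CYSP and 16, 26 and 46 in CK (log2 fold change -1.52, SE 0.412, edgeR adjusted p = 7.33e-04), and its call ended without CK replicate 3 (log2 fold change -1.03, edgeR adjusted p = 0.0503). Col4a6 had 19 counts over the CYSP group and 18 over the CK group and was not tested.

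Type VIII collagen, a short-chain network collagen of vessel walls and the cornea, was lower in both chains. Col8a1 had 19.8, 22.6 and 21.5 FPKM in CYSP and 114, 96.8 and 109.8 FPKM in CK (log2 fold change -2.26, SE 0.059, edgeR adjusted p = 5.52e-17). Col8a2 had 25, 25.4 and 24.4 FPKM in CYSP and 111, 104 and 110 FPKM in CK (log2 fold change -2.03, SE 0.0349, edgeR adjusted p = 8.93e-62). Col10a1, the collagen of hypertrophic cartilage, had 9 counts over the CYSP group and 17 over the CK group and was not tested. Of 7 tested network chains 2 were higher and 5 lower.

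The fibril-associated collagens, which coat fibrils and link them to other matrix proteins, were led by Col12a1. Col12a1, a large chain that marks dense and mechanically loaded tissue, had 252, 253 and 249 FPKM in CYSP samples, against 965, 938 and 934 FPKM in CK samples. It fell by 1.83 on the log2 scale (SE 0.0211, edgeR adjusted p = 9.3e-74). Col14a1, a related chain, had 47.6, 48.5 and 46.7 FPKM in CYSP and 42.3, 36.9 and 40.8 FPKM in CK, and Col16a1 had 52, 50.3 and 49.8 FPKM in CYSP and 38.6, 38.2 and 37.5 FPKM in CK. These were small rises without overlap, with log2 fold changes of 0.33 (SE 0.0359, edgeR adjusted p = 4.3e-12) and 0.50 (SE 0.0342, edgeR adjusted p = 1.07e-22). With a coefficient of variation of 0.2 assumed, neither passed (edgeR adjusted p = 0.252 for Col14a1 and 0.071 for Col16a1).

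Among the rarer members of this class, Col20a1 had 1.62, 1.47 and 1.72 FPKM in CYSP and 2.15, 2.13 and 2.6 FPKM in CK (log2 fold change -0.43, SE 0.0919, edgeR adjusted p = 2.03e-05). It too was lost with an assumed coefficient of 0.2 (edgeR adjusted p = 0.135). Type IX collagen of cartilage was nearly absent and its chains differed in direction. Col9a2 had 17, 4 and 7 counts in CYSP and 42, 22 and 42 in CK (log2 fold change -1.78, edgeR adjusted p = 3.9e-05). Col9a3 had 15, 12 and 11 counts in CYSP and 1, 4 and 3 in CK (log2 fold change 2.32, edgeR adjusted p = 5.43e-04). Col9a1 had 1 count in each group. Col22a1, with 26 counts over the CYSP group and 8 over the CK group, and Col19a1, with none in any sample, were not tested. Of 6 tested members 3 were higher and 3 lower.

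Type VI collagen, the beaded filament that surrounds cells and connects them to the matrix, is built from Col6a1, Col6a2 and Col6a3. All of these chains were lower in CYSP, by unequal amounts. Col6a1 had 209, 203 and 204 FPKM in CYSP and 439, 420 and 422 FPKM in CK (log2 fold change -0.97, SE 0.025, edgeR adjusted p = 1.17e-49), and did not pass with an assumed coefficient of 0.4 (edgeR adjusted p = 0.146). Col6a2 had 308, 309 and 306 FPKM in CYSP and 424, 409 and 404 FPKM in CK (log2 fold change -0.34, SE 0.0246, edgeR adjusted p = 2.82e-21), and did not pass with an assumed coefficient of 0.2 (edgeR adjusted p = 0.24). Col6a3, the largest chain, had 30.4, 30 and 29.8 FPKM in CYSP and 163, 156 and 154 FPKM in CK (log2 fold change -2.41, SE 0.0279, edgeR adjusted p = 7.75e-74). The alternative chains Col6a4, Col6a5 and Col6a6 had at most 3 counts in any sample and were not tested.

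The transmembrane collagens, which span the cell membrane and can be shed, were all rare. Col13a1, found at cell contacts and at the neuromuscular junction, had 79, 63 and 55 counts in the CYSP samples and 0 in each CK sample. It was at least 71.8-fold higher in CYSP when 3 counts over the CK group are taken as the floor (edgeR adjusted p = 5.77e-20). At 1.67, 1.48 and 1.26 FPKM its level in CYSP was still low. Col25a1, a chain found in amyloid plaques of the brain, fell, with 33, 28 and 32 counts in CYSP and 112, 93 and 80 in CK (log2 fold change -1.48, SE 0.22, edgeR adjusted p = 7.21e-09). Col17a1, the hemidesmosome collagen of skin, had 12, 12 and 7 counts in CYSP and 8, 17 and 10 in CK and did not pass the test (edgeR adjusted p = 0.924). Col23a1 had 11 counts over the CYSP group and 3 over the CK group and was not tested.

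The remaining tested chains all rose. Col15a1 and Col18a1 encode basement-membrane collagens whose C-terminal ends release the antiangiogenic fragments restin and endostatin. Col15a1 had 194, 188 and 186 FPKM in CYSP and 47.4, 51.8 and 47.2 FPKM in CK (log2 fold change 2.04, SE 0.0307, edgeR adjusted p = 1.4e-60). Col18a1 had 60.7, 59.9 and 56.9 FPKM in CYSP and 16.3, 16.9 and 15.3 FPKM in CK (log2 fold change 1.82, SE 0.0383, edgeR adjusted p = 1.58e-55). Col7a1, the anchoring fibril that ties the basement membrane of skin to the dermis, had 322, 265 and 246 counts in CYSP and 12, 13 and 5 in CK. Its log2 fold change was 4.90 (SE 0.203, edgeR adjusted p = 9.52e-36), from a CK level of 0.0667 ± 0.0294 FPKM against 1.9 ± 0.139 FPKM in CYSP (mean ± SD, n = 3 each). Col26a1, with 1 count over the CYSP group and 12 over the CK group, and Col28a1, with none, were not tested.

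Expressed as shares of the summed collagen FPKM, collagen in CYSP held less type I and more types III and IV. Type I fell to 24.8%, 23.7% and 24.6% of collagen FPKM in the CYSP samples, against 58%, 57.9% and 57.5% in the CK samples. Type III made up 44.5%, 45.4% and 44.8% in CYSP and 18.9%, 18.9% and 19.4% in CK. Type IV made up 9.99%, 9.83% and 9.87% in CYSP and 1.52%, 1.49% and 1.48% in CK. Such shares are bound to one another, so that a lower share of type I raises the others. The summed collagen FPKM itself was 11298, 11040.4 and 11078 in CYSP and 22586, 21950.2 and 22105 in CK.

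By class, fibrillar chains held 79.4% ± 0.0796 of collagen FPKM in CYSP and 88.1% ± 0.103 in CK (SD, n = 3 each). Network chains held 10.3% ± 0.0687 in CYSP and 2.46% ± 0.0532 in CK, and fibril-associated chains 3.16% ± 0.0387 in CYSP and 4.62% ± 0.0228 in CK. The share of the beaded-filament chains was 4.87% ± 0.0353 in CYSP and 4.49% ± 0.0557 in CK, although each of these chains fell. This difference turned round when CPM, which is not per length, was used in place of FPKM (-0.226 percentage points). Transmembrane chains held 0.0177% ± 0.00218 in CYSP and 0.00476% ± 0.000686 in CK, and the remaining types 2.25% ± 0.037 in CYSP and 0.293% ± 0.018 in CK.

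**Figure D3:**
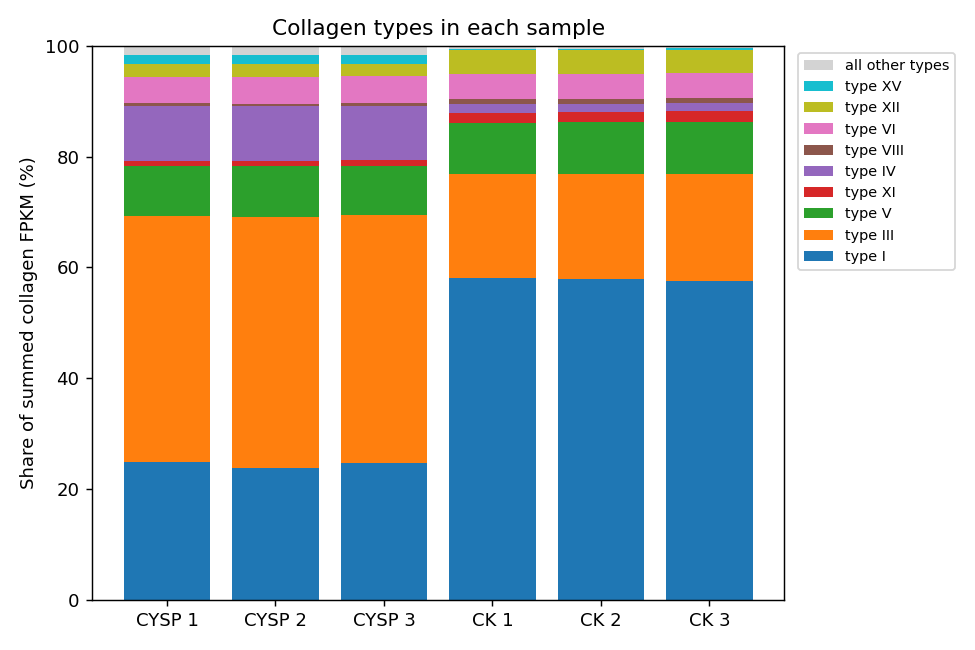
Share of the summed collagen FPKM (%) held by each collagen type in the 3 CYSP and 3 CK samples, 1 stacked bar per sample. Type I holds 23.7% to 24.8% in CYSP and 57.5% to 58% in CK, and type III 44.5% to 45.4% in CYSP and 18.9% to 19.4% in CK.

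Chains that can share a trimer did not all keep their proportion. Type I collagen contains more Col1a1 than Col1a2 chains, and the ratio of Col1a1 to Col1a2 in FPKM was 1.48, 1.44 and 1.46 in CYSP and 1.29, 1.27 and 1.25 in CK. Col4a1 to Col4a2 changed least, with 1.6, 1.57 and 1.59 in CYSP and 1.5, 1.51 and 1.54 in CK. Col6a1 to Col6a2 was 0.678, 0.656 and 0.666 in CYSP and 1.04, 1.03 and 1.04 in CK. Col6a3 to Col6a1 changed most among the 7 ratios compared, with 0.146, 0.148 and 0.146 in CYSP and 0.372, 0.372 and 0.366 in CK. Col5a1 to Col5a2 averaged 0.36 ± 0.0106 in CYSP and 0.512 ± 0.0138 in CK, Col11a1 to Col5a1 0.513 ± 0.0255 in CYSP and 0.607 ± 0.0144 in CK, and Col8a1 to Col8a2 0.855 ± 0.0534 in CYSP and 0.989 ± 0.0493 in CK (mean ± SD, n = 3 each). None of the 7 ratios overlapped between the groups, but the gap was narrow for Col8a1 to Col8a2 (0.891 in CYSP replicate 2 and 0.935 in CK replicate 2). CPM values of single genes did not overlap in 77.0% of all rows tested. No such share was computed for FPKM or for ratios of other genes. The 7 ratios were not tested, and as ratios of FPKM they depend on the gene lengths the authors used.

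**Figure D4:**
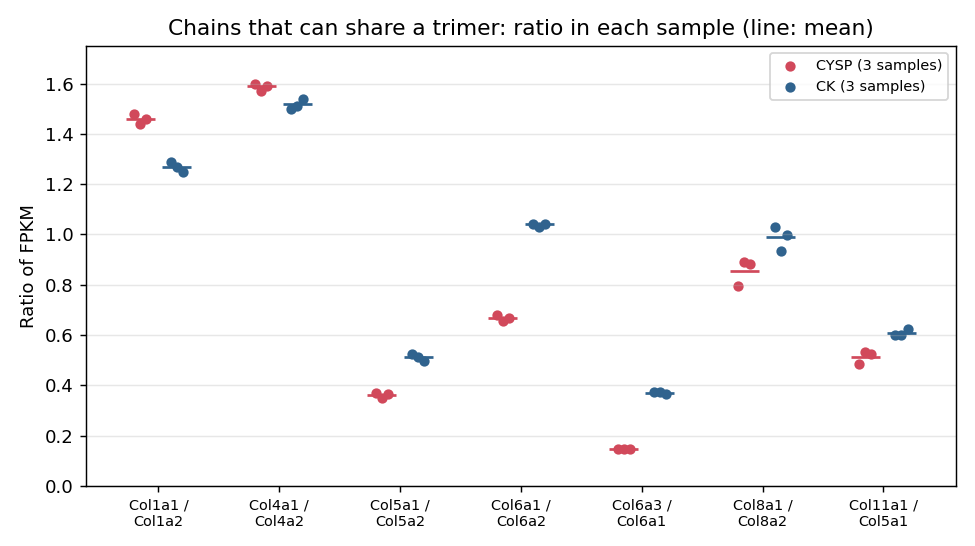
Ratio of FPKM between chains that can share a trimer, 1 point per sample and a line at the mean of the 3 CYSP and 3 CK samples. Col6a3 to Col6a1 averages 0.147 in CYSP and 0.37 in CK, whereas Col4a1 to Col4a2 averages 1.59 in CYSP and 1.52 in CK.

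Promoter sequences were looked up for the chains that changed, to show the DNA just before the listed start of genes that rose and genes that fell. The RefSeq promoter table (GRCr8) held 35 of the 44 symbols, matched by symbol. Of these, 8 passed the test, had a mean of at least 50 CPM and had a listed start at the outer end of the gene. For each direction the 3 with the largest changes were taken. For Col4a1 only the 76 bases up to the start of Col4a2 are shown, above. For the others the 150 bases before the start are printed here. Capitals mark matches on either strand to 6 motifs. The letters of the CCAAT box are CCAAT and those of the GC box are again GGGCGG. The TATA box, which the general transcription machinery binds, was searched as TATAAA. The SMAD-type motif was searched as CAGACA, after the factors that carry TGF-beta signals. The TEAD-type motif was searched as CATTCC, after the partners of the Hippo pathway. The hypoxia-response core was searched as ACGTG. Col15a1 lies at chr5:66297396-66297545 and Col18a1 at chr20:11473495-11473644, both on the plus strand and both higher in CYSP. Col1a2 at chr4:33518407-33518556 and Col11a1 at chr2:204508986-204509135 lie on the plus strand and Col5a2 at chr9:55090152-55090301 on the minus strand, and these were lower in CYSP.

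Col15a1: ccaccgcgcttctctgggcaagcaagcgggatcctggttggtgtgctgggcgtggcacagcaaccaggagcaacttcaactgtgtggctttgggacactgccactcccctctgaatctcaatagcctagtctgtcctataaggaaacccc

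Col18a1: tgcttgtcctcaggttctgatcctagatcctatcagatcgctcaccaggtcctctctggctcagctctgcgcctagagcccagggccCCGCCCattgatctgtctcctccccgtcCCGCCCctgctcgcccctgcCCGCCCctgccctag

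Col1a2: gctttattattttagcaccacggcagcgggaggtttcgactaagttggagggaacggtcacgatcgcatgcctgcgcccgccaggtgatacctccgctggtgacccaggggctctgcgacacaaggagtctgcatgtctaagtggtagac

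Col11a1: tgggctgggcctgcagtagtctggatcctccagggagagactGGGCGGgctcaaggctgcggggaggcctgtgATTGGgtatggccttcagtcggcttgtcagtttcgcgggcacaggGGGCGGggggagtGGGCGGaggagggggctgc

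Col5a2: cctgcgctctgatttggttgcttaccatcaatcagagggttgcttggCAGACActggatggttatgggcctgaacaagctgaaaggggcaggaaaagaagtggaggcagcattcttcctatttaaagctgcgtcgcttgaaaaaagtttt

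The GC box matched 3 times in Col18a1, which rose, and 3 times in Col11a1, which fell. The CCAAT box matched once in Col11a1 and the SMAD-type motif once in Col5a2. In the windows of Col15a1 and Col1a2 no match to any of the motifs was found. For these genes the DNA outside the printed windows was not searched. Whether transcription begins at the listed start was not tested, so a window may hold transcribed DNA. A missing match therefore does not show that a gene lacks the motif. Over all 33469 windows of 150 bases in the table, 26% held the GC box, 23.5% the CCAAT box, 10.3% the SMAD-type motif, 8% the TATA box, 7.4% the TEAD-type motif and 10.8% the hypoxia-response core. A match describes letters in this window and is neither a site nor a cause.

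The genes that fold and modify collagen chains did not move as 1 block. Of 19 listed genes 18 were found and tested, with 9 higher and 7 lower and a median log2 fold change of 0.03. Over all rows tested, 76.1% were called, 38.2% higher and 37.8% lower, and the median was 0, which is the background for this and the next 3 lists. Serpinh1, the collagen-specific chaperone HSP47, had 738, 739 and 771 CPM in CYSP and 2430, 2384 and 2425 CPM in CK, and fell by 1.69 on the log2 scale (SE 0.0246, edgeR adjusted p = 1.05e-66). P4ha3, 1 of the catalytic subunits of prolyl 4-hydroxylase, fell by 3.85 (SE 0.0548, edgeR adjusted p = 1.55e-67). The lysyl hydroxylase Plod1 was higher, with 867, 818 and 843 CPM in CYSP and 239, 242 and 245 CPM in CK (log2 fold change 1.80, SE 0.0296). Colgalt2, which adds galactose to hydroxylysine, had 14.2 ± 1.16 CPM in CYSP and 0.632 ± 0.146 CPM in CK (mean ± SD, n = 3 each), a log2 fold change of 4.46 (SE 0.211).

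Of 13 listed genes that process procollagen or crosslink it, 11 were tested, with 5 higher and 6 lower and a median of -0.13. Adamts3, a procollagen N-proteinase, had 81.5, 85.3 and 77.2 CPM in CYSP and 2.31, 2.57 and 2.11 CPM in CK (log2 fold change 5.12, SE 0.0986, edgeR adjusted p = 3.07e-58). Tll1, of the family that removes C-propeptides, fell by 2.55 (SE 0.0426). The crosslinking enzyme Lox had 1540.3, 1556 and 1575 CPM in CYSP and 549, 549 and 529 CPM in CK (log2 fold change 1.52, SE 0.0258), and its relative Loxl3 fell by 1.58 (SE 0.0609).

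All 7 listed genes of collagen breakdown and uptake passed the test, with 5 higher and 2 lower and a median log2 fold change of 1.82, against 76.1% called among all rows tested. The collagenase Mmp13 had 17897, 17967 and 17801 CPM in CYSP and 91.4, 107 and 93.4 CPM in CK (log2 fold change 7.52, SE 0.0575, edgeR adjusted p = 2.87e-12). The gelatinases Mmp9 and Mmp2 had log2 fold changes of 4.25 (SE 0.0467) and 2.59 (SE 0.0232), and Mrc2, the endocytic collagen receptor, of 1.82 (SE 0.0363). The 2 lower genes were Ctsk (log2 fold change -1.57, SE 0.0527) and Mmp8 (-3.25, SE 0.561). Mmp8 was rare, with 7 counts over the CYSP group and 76 over the CK group.

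Of 9 collagen receptors 6 were tested, with 3 higher and 3 lower and a median log2 fold change of -0.32. Itga11, the integrin chain that binds fibrillar collagen on stromal cells, had 46.6, 47.1 and 47.8 CPM in CYSP and 1578, 1513 and 1513 CPM in CK, and fell by 5.02 (SE 0.0344, edgeR adjusted p = 1.67e-89). Itga1, whose integrin binds type IV collagen well, fell by 1.20 (SE 0.0734). Itgb1 fell by 0.97 (SE 0.0233), with 1301, 1276 and 1313 CPM in CYSP and 2531, 2504 and 2571 CPM in CK. Ddr1, a collagen-activated receptor kinase, had 142 ± 6.08 CPM in CYSP and 45.8 ± 1.5 CPM in CK (mean ± SD, n = 3 each), a log2 fold change of 1.63 (SE 0.0489).

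**Figure D5:**
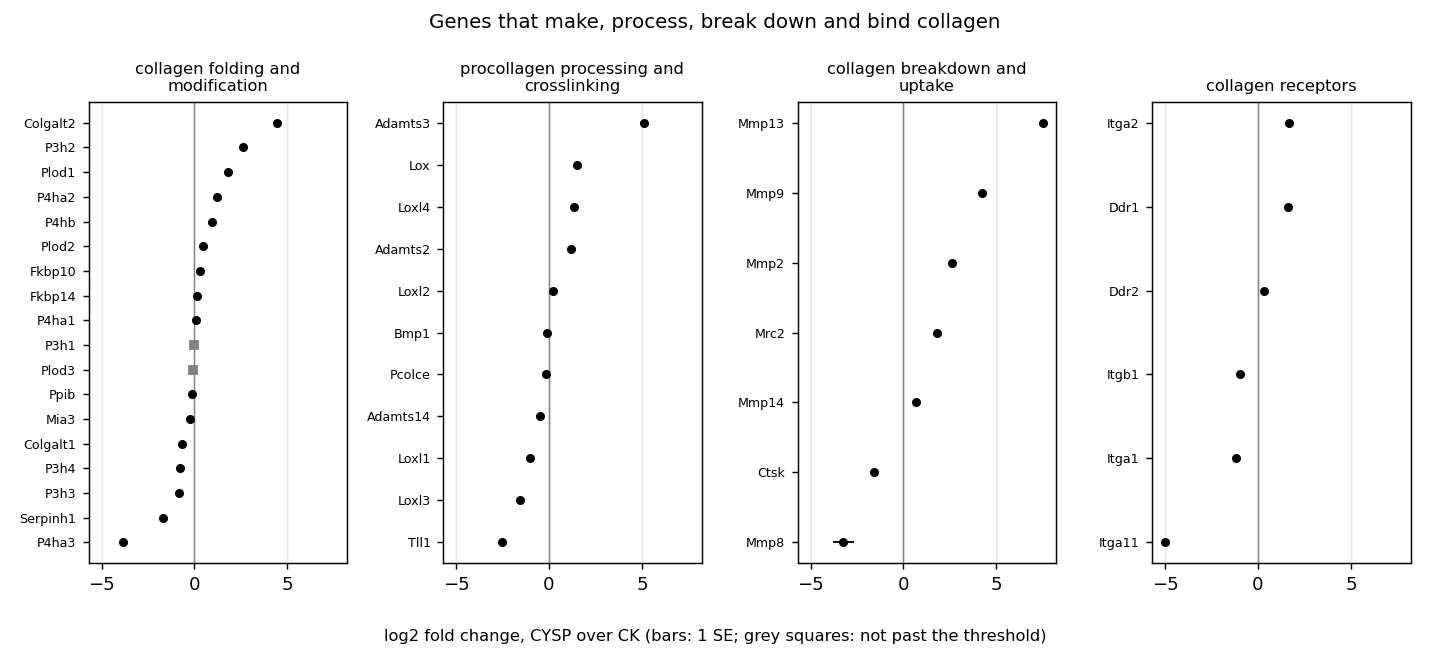
Log2 fold change of CYSP over CK (x axis) with 1 SE for the tested genes of 4 lists around collagen, black circles for an edgeR adjusted p under 0.05 and grey squares otherwise. Mmp13 (7.52) and Adamts3 (5.12) lie farthest to the right and Itga11 (-5.02) farthest to the left.

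In the authors' deposited table, 12 of the collagens called higher here were also higher at an adjusted p under 0.05, and all 18 called lower were also lower. The exception, Col24a1, had a log2 fold change of 0.65 and an adjusted p of 0.12 in the authors' deposited table.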

How the data were processed

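Polyadenylated RNA of 6 samples was sequenced. The submitters' processing notes list fastp 0.18.0, HISAT2, StringTie 1.3.1 and RSEM without saying what each did. Genome build, annotation and read counter are not stated, nor is the use of strand, so that overlapping and antisense genes may share reads. The deposited table holds raw counts and FPKM for each sample, per its file headers. It also holds the authors' mean FPKM, log2 fold change, p-value and adjusted p-value. Deposited counts would be rounded estimates if they came from RSEM.

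Counts were tested with edgeR 4.0.16 in R 4.3.3 (filterByExpr, TMM, robust glmQLFit, glmQLFTest), CYSP over CK, all 6 samples, with Benjamini-Hochberg adjustment over the 12623 rows tested. Samples were grouped by title. Each SE is the size of the log2 fold change divided by the square root of its F statistic. CPM values are TMM-scaled. Alternatives used DESeq2 1.42.0 and limma 3.58.1 among others. Every fit with an assumed coefficient of variation used edgeR's likelihood ratio test (glmFit, glmLRT), so that both the dispersion and the test differ from the main fit. The procedure was tested on simulated counts. The rule for named genes took, per class, up to 6 tested chains with the highest mean CPM and up to 2 with the largest change each way, which gave 29 chains; the other 3 tested chains are given too. From each pathway list it took up to 4 genes by size of change among those averaging 5 CPM or more. Ctsk and Mmp8 of the breakdown list are given besides. The members and lists were chosen with earlier results of these data known. Crtap, Pcolce2 and Krt14 are not analysed here. Same-numbered samples of the groups are not paired by the labels. No pair of replicates agreed within sampling noise.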

Additional observations from a re-analysis of the deposited data

How the results depend on the processing

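Over the 20 alternative fits, 9 to 14 collagens were called higher and 12 to 19 lower. The fits tested between 26 and 42 collagens, and the largest counts, 14 and 19, came from the fit with no filter, which tested 42. Leaving out 1 replicate gave 12 to 13 higher and 17 to 18 lower collagens, 4706 to 4751 higher and 4621 to 4687 lower rows overall. In 20 called chains every fit that tested them kept the call, and 11 called chains lost it in some fit. Col17a1, never called, changed sign with limma-voom (0.01), without CK replicate 2 (0.35) and without CYSP replicate 3 (0.14), with a range of -0.30 to 0.35 when 1 replicate was left out, and the cause was not tested. With a coefficient of variation of 0.2 assumed, 3102 rows were higher and 2801 lower, and with 0.4 assumed, 1496 were higher and 1209 lower. A log2 fold change of at least 1 left 1917 higher and 1598 lower. In the folding list, 5 genes were higher at 0.2, 3 higher and 2 lower at 0.4, and 4 higher and 2 lower at a log2 fold change of at least 1. In the processing list, 3 were lower at 0.2, 3 higher and 2 lower at 0.4, and 3 lower at a log2 fold change of at least 1. A single receptor (1) was lower at 0.4. The breakdown list had 1 lower gene with limma on log2(FPKM + 1) or log2(FPKM + 0.1) and with a minimum of 50 counts in 3 samples. On CPM the class shares differed (CYSP minus CK) by 10.1 percentage points for network, -3.13 for fibril-associated, -0.226 for beaded-filament (reversed), 0.00633 for transmembrane and 1.91 for the remaining types, and the log2 change of Col6a3 to Col6a1 was -1.44. A fit with the replicate number as a block called 13 collagens higher and 18 lower, and 4773 higher and 4713 lower among all rows tested. Deviations from the group means had correlations of -0.000633, 0.0185 and -0.00885 between same-numbered samples. These values show no pairing but cannot exclude it, since noise over all rows tested could hide a shared effect. Chains with few counts, such as Col4a3, Col9a2 and Col9a3, are limited by depth.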

Other observations

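Several collagen genes are next to each other among the protein-coding genes of the RefSeq table (GRCr8), and neighbours did not always move alike. Col3a1 and Col5a2 are adjacent on chromosome 9, and their log2 fold changes of CYSP over CK were 0.32 and -1.10. Col6a1 and Col6a2, adjacent on chromosome 20, had -0.97 and -0.34. Col4a1 and Col4a2 on chromosome 16 had 1.87 and 1.80, and Col4a3 and Col4a4 on chromosome 9 had -1.93 and -1.52. These pairs were picked out after their values were seen, and no test was made of neighbours.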
